A study of Mus musculus with 2 samples.

Results

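Cell division in sorted retinoid-containing lung cells was followed through 10 genes whose transcripts rise as a cell copies its DNA and divides: Mki67, Top2a, Hmmr, Ccnb2, Birc5, Cdk1, Ccna2, Ube2c, Rrm2 and Tyms. All 10 were rows of both deposited tables, out of 32285 genes. A cell was called dividing when it held 3 or more unique molecular identifiers (UMIs, each standing for 1 captured RNA molecule) spread over 2 or more of the 10 genes, and 109 of 19622 cells met this rule, 0.555% (exact 95% interval 0.456 to 0.670%). The cells came from the lungs of male mice, wild type on C57BL/6 and 3 months old, and were sorted as UV-positive, live cells by the light that stored retinoids emit at 455 nm, and they made up 2 droplet libraries of 1 condition, called library 1 and library 2. No treatment was compared. The sort sets which cells enter, so shares are shares of sorted cells and not of the lung. How many mice gave each library is not given in the sources used here, and the experiments took place on separate occasions, so the mice and the occasion cannot be told apart as sources of a difference between libraries.

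A cell that enters division first commits in G1, then copies its genome in S phase, and in G2 and mitosis builds the machinery that condenses, holds and separates chromosomes. Transcripts of the S phase enzymes rise first and those of the mitotic proteins later, so the mixture in a cell marks how far it has gone. In the adult mouse lung most cells rest, and division is known mainly in alveolar type 2 cells, capillary endothelium, resident macrophages and lymphoid and dendritic cells. Lipofibroblasts, the alveolar stromal cells that store retinoids and lipid, are the main cells that the UV gate collects.

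The members were ordered by the stage they serve. Tyms (thymidylate synthase, chr5:30058202-30073617) and Rrm2 (the small subunit of ribonucleotide reductase, chr12:24708241-24714146) make the precursors of DNA. Ccna2 (cyclin A2, chr3:36564865-36572150) and Cdk1 (the kinase that starts mitosis, chr10:69335146-69352938) act from S phase to mitosis, and Ccnb2 (cyclin B2, chr9:70407692-70421547) is a partner of Cdk1. Top2a (DNA topoisomerase II alpha, chr11:98992943-99024189) untangles chromosomes, Mki67 (Ki-67, chr7:135689784-135716361) coats them in mitosis, Hmmr (chr11:40701395-40733422) acts at the spindle, Birc5 (survivin, chr11:117849251-117855743) belongs to the chromosomal passenger complex, and Ube2c (chr2:164769898-164778822) is the ubiquitin-conjugating enzyme of the anaphase-promoting complex. Positions are from GENCODE M21 on GRCm38. In that annotation Ube2c overlaps Tnnc2, Ccna2 overlaps Exosc9 and Mki67 overlaps Gm45240 on the opposite strand, and 1 processed pseudogene is named after each of Ccnb2 and Tyms, neither of them a row of the deposited tables. Their part in the counts was not tested.

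Promoter sequences are shown for 4 members that behaved differently below, Top2a and Ube2c, whose UMIs lay almost wholly in dividing cells, and Ccnb2 and Tyms, which were also found in cells not called dividing. Each run holds 300 bases, from 250 before to 50 after the gene start, from RefSeq on GRCm38.p6, and RefSeq entries were matched for 9 of the 10 members (Ccna2 had none). Capitals mark CCAAT (the CCAAT box), TTTGAA (the cell cycle homology region, CHR) and the E2F-type letters TTCCCGC and TTGGCGC as well as TTCGCGC and also TTGCCGC, searched on both strands, and 2 matches of CCAAT on opposite strands may overlap.

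Top2a, chr11:99024140-99024439, minus strand: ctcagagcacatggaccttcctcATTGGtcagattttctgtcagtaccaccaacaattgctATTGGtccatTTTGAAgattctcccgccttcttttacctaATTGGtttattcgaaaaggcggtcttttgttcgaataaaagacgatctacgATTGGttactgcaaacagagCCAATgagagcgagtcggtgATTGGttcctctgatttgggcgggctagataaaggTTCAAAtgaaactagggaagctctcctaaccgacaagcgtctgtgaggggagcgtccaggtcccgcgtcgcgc

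Ube2c, chr2:164769679-164769978, plus strand: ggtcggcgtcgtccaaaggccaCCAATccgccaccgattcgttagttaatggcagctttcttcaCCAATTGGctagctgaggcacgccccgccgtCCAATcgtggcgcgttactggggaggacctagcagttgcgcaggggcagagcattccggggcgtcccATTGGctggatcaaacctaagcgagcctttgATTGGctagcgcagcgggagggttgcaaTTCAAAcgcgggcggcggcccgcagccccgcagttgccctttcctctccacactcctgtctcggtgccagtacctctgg

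Ccnb2, chr9:70421505-70421804, minus strand: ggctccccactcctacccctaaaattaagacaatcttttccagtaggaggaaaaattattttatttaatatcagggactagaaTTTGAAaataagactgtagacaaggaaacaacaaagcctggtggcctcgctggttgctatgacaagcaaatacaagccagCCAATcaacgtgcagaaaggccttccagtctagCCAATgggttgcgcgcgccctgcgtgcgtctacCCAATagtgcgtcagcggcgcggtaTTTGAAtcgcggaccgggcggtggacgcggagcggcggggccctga

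Tyms, chr5:30073576-30073875, minus strand: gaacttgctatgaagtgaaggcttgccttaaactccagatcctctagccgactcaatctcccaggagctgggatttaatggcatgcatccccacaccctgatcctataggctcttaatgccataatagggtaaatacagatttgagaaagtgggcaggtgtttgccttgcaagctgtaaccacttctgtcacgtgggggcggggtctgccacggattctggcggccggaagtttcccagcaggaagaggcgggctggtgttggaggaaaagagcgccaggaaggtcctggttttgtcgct

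The Top2a window held 6 CCAAT and 2 TTTGAA matches, the Ube2c window 6 and 1, and the Ccnb2 window 3 and 2, whereas none of the searched letters was in the Tyms window. Over the 9 members, 7 windows held CCAAT, against 37.9% of 27025 promoters of the same length. TTTGAA was in 6 of 9 windows, against 18.1% of all promoters, and both motifs together were in the same number of windows, 6 of 9, against 7.12%. E2F-type letters were in 4 of 9 windows (Mki67, Hmmr, Cdk1 and Rrm2), against 9.69%. These are matches of letters and not measured binding sites.

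The 9669 barcodes of library 1 summed to 48762735 UMIs and the 10050 of library 2 to 93970185. Cells with 200 or more genes and at most 10% mitochondrial UMIs numbered 9634 and 9988, with a median of 4480 and 7577.5 UMIs. Dividing cells numbered 29 in library 1 (0.301%, 0.202 to 0.432%) and 80 in library 2 (0.801%, 0.636 to 0.996%), and the intervals, which cover counting error only, did not overlap. The deeper library thus held the higher share. After every cell was thinned to 2000 UMIs, 14 of 8474 and 46 of 9801 cells met the rule. Dividing cells were themselves deep, with a median of 12180 against 4473 UMIs in other cells of library 1 and 23776 against 7536 in library 2. The median mitochondrial share was 1.64 against 1.26% and 2.17 against 2.32%. In all, 23 barcode sequences occurred in both libraries, and 0 and 1 of the cells under them were dividing.

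Near the threshold, 5 and 11 dividing cells held exactly 3 member UMIs, while 20 and 59 cells held 2 UMIs over 2 members and 6 and 13 cells held 3 or more UMIs of 1 member, and these stayed outside. Well inside it, 17 of 29 and 57 of 80 dividing cells held 10 or more member UMIs. The median over dividing cells was 10 in library 1 and 44.5 in library 2, and the highest values were 129 and 269.

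Alveolar stromal cells, the largest class, were rarely called dividing. A class was given to a cell with 3 or more UMIs over 3 markers: Col1a2, Mfap4 and Pdgfra for stromal, Cdh5, Pecam1 and Egfl7 for endothelial, Epcam, Cdh1 and Lamp3 for epithelial, and Ptprc, Laptm5 and Cd52 for immune cells, where exactly 1 class held. Stromal cells with no UMI of Dcn were called alveolar stromal. Of these, 4 of 5805 in library 1 (0.0689%, 0.0188 to 0.176%) and 3 of 5545 in library 2 (0.0541%, 0.0112 to 0.158%) were dividing. Other stromal cells had 1 of 1840 (0.0543%, 0.00138 to 0.302%) and 6 of 1893 (0.317%, 0.116 to 0.689%), and endothelial cells 0 of 56, which allows a share of up to 5.36%, and 1 of 360 (0.278%, 0.00703 to 1.54%).

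Immune and epithelial cells gave the higher shares. Dividing cells were 4 of 266 immune cells in library 1 (1.50%, 0.411 to 3.81%) and 9 of 334 in library 2 (2.69%, 1.24 to 5.05%). Epithelial cells had 11 of 930 in library 1 (1.18%, 0.592 to 2.11%) and 0 of 101 in library 2, which allows up to 2.97%. Barcodes that also held stromal markers are outside this class. With stromal markers disregarded, a setting chosen after the data were seen, epithelial cells had 12 of 1117 (1.07%) and 3 of 224 (1.34%). In each library the interval of the immune class lay above that of the alveolar stromal class, whereas the epithelial interval did so in library 1 and reached down to 0 in library 2. The shares themselves were not tested between classes, since the exact permutation test of 2 libraries against 2 cannot go below 0.33.

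**Figure D1:**
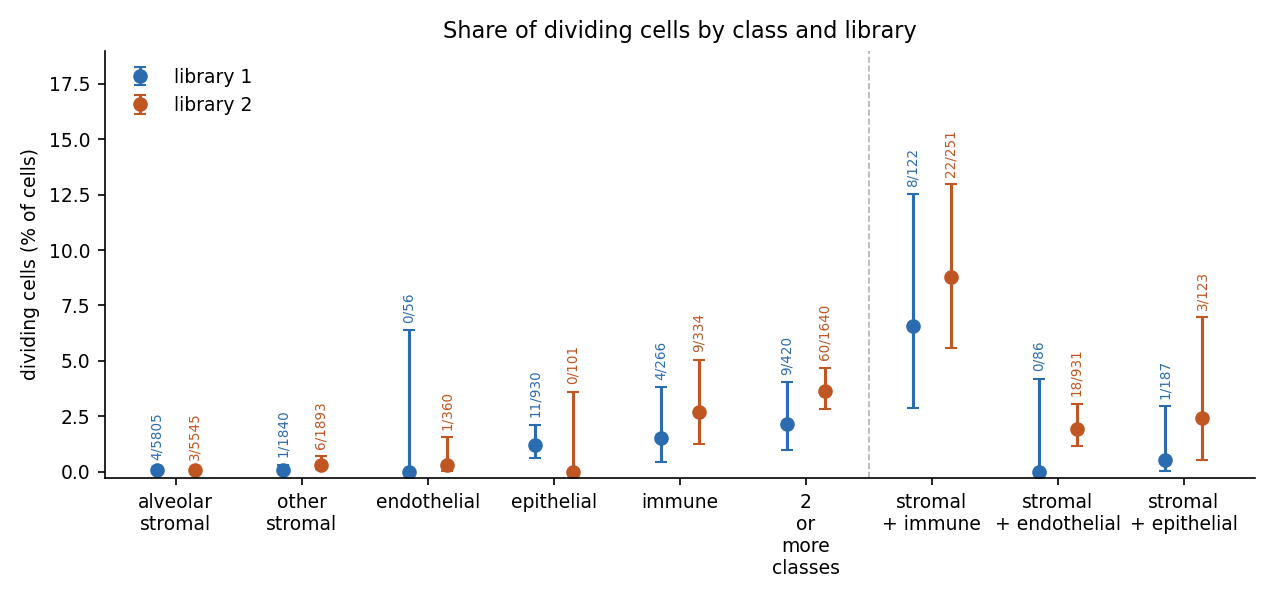
The percentage of cells called dividing in each class (left of the dashed line) and in 3 combinations of 2 classes (right), with exact 95% intervals. Blue points are library 1, orange points library 2, and the numbers are dividing cells over all cells. Alveolar stromal cells sit at 0.0689% and 0.0541%, below the immune cells at 1.50% and 2.69%.

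Most dividing cells carried markers of more than 1 class. Of the 109, 39 fell in exactly 1 class, 69 (63.3%) held 2 or more and 1 held none, against 10.5% of all cells with 2 or more. Stromal plus immune barcodes contained 8 dividing cells of 122 in library 1 (6.56%, 2.87 to 12.5%) and 22 of 251 in library 2 (8.76%, 5.57 to 13.0%). Stromal plus endothelial barcodes had 0 of 86 and 18 of 931 (1.93%, 1.15 to 3.04%), and stromal plus epithelial barcodes 1 of 187 (0.535%) and 3 of 123 (2.44%). Depth moved with these numbers: cells of 2 or more classes that were not dividing had a median of 10247 and 17104 UMIs, against 3958 and 6543.5 in alveolar stromal cells. Whether such a barcode held 1 cell with stray RNA or several cells was not tested.

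Marker lists described what the dividing cells were besides dividing. All 11 dividing epithelial cells held 3 or more UMIs of the alveolar type 2 list (Sftpc, Sftpb, Abca3 and Lamp3), as did 919 of 919 other epithelial cells. At 3 UMIs this list set little apart. Lamp3 is also a marker of the class, and 3031 cells of library 1 held the list, against 930 in the epithelial class. The 11 dividing cells held 453 to 4252 UMIs of Sftpc. The club cell list was held by 2 of 11 dividing and 433 of 919 other epithelial cells. Among the 9 dividing immune cells of library 2, 4 held T cell markers (Cd3d, Cd3e, Cd3g and Trac) and 3 of those also held natural killer markers. Alveolar macrophage markers were held by 3, dendritic cell markers by 2 and monocyte markers by 6 of the 9, and 1 cell held all 3 of these lists, with 6, 21 and 14 UMIs. The monocyte list did not mark monocytes alone. Cells with 21, 37 and 38 T cell UMIs held it too, with 15, 4 and 3 UMIs. The 4 of library 1 comprised 2 with dendritic cell markers, 1 with B cell markers and 1 with C1q genes of interstitial macrophages. The cell with B cell markers (85 UMIs) also held 85 UMIs of the monocyte list and 10 of plasma cell markers. The cell with C1q genes also held 8 UMIs of the monocyte list.

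Dendritic cell and monocyte markers were frequent in the dividing stromal plus immune barcodes. The dendritic list (Flt3, Xcr1, Cd209a, Ccl22 and Clec9a) was held by 19 of 22 dividing and 80 of 229 other such barcodes in library 2, and by 4 of 8 and 30 of 114 in library 1. The monocyte list was held by 20 of 22 against 134 of 229 and by 5 of 8 against 39 of 114. The dividing barcodes of this combination were deeper than the others. Their median was 26157.5 against 16560 UMIs in library 2 and 15237 against 8733 in library 1, and the part of depth was not tested. C1qa, C1qb and C1qc, which mark interstitial macrophages, were found in 1, 0 and 0 of the 22 dividing barcodes of library 2, against 55, 54 and 51 of the 229 others, but in 2 of the 8 of library 1 each. Over all classes, cells that held the dendritic list were dividing in 6 of 63 cases (9.52%) and 32 of 225 (14.2%). Those barcodes were deep, with a median of 9831 and 18828 UMIs.

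Neutrophils, which no longer divide, served as the cells that should lack the members. Among immune cells with 3 or more UMIs of S100a8, S100a9, Retnlg and Csf3r, 0 of 58 and 1 of 31 held any member UMI and none was dividing. Other immune cells held a member UMI in 13 of 208 (6.25%) and 33 of 303 (10.9%). The neutrophils were shallower, at a median of 1404.5 and 2272 UMIs against 3543.5 and 4831. The dividing cell of no class, in library 2, held 20 UMIs of Ube2c and 1 of Rrm2 beside 6401 UMIs of the haemoglobin genes Hba-a1 and Hbb-bs, and none of Mki67, Top2a or the other members. Of barcodes with 3 or more haemoglobin UMIs, 0 of 8 in library 1 and 3 of 19 in library 2 were dividing. A stromal plus endothelial barcode among them held 8122, and 13 of its 16 member UMIs were Ube2c. An alveolar stromal barcode held 8590, with 24 of its 58 from Ube2c. A link of Ube2c to red cell RNA was not tested.

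The member UMIs chose the dividing cells, so their values in them are a description. Among the dividing epithelial cells of library 1, 5 held between 3 and 11 member UMIs, with no UMI of Ube2c, Hmmr or Ccnb2, and Tyms in each of them. The other 6 held 45 to 129, and these had Ube2c, Hmmr and Ccnb2 in every cell. S phase list UMIs ranged from 10 to 90 in the first 5 cells and from 9 to 111 in the other 6. G2/M list UMIs ranged from 25 to 152 and from 231 to 530. The cells differed in depth. Per 10k UMIs of the cell, the S phase list gave 27.1, 60.3, 69.0, 53.0 and 73.0 in the first 5. In the other 6 it gave 75.2, 26.5, 5.33, 22.5, 22.0 and 15.4. The G2/M list gave 67.7 to 125 and 157 to 355. Scaled in this way, the other 6 were higher in mitotic transcripts and mostly lower in those of S phase. The dividing endothelial cell of library 2 held 151 member UMIs, with 42 of Mki67, 39 of Top2a and 27 of Ube2c.

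Dividing stromal cells lay mostly near the threshold, with 5 exceptions, all in library 2. All 4 alveolar stromal cells of library 1 held 3 to 5 member UMIs, of which Ccnb2 gave 2 to 4, and none held Mki67, Top2a, Hmmr, Birc5, Cdk1 or Ccna2. In library 2 the 3 cells held 3, 5 and 58, the last with 24 of Ube2c and 9 of Mki67. Of the 27519 UMIs of that last cell, 8590 were of the haemoglobin genes, which 3 of 5542 other alveolar stromal cells of library 2 held at 3 UMIs or more, and whether the barcode held more than 1 cell was not tested. Of the 6 other stromal cells of library 2, 4 held 74, 111, 157 and 243 member UMIs, with all 10 members in each, and 2 held 3. A rule over the other 8 members alone, chosen after these values were seen, left 0 and 2 dividing alveolar stromal cells and 0 and 4 other stromal cells.

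**Figure D2:**
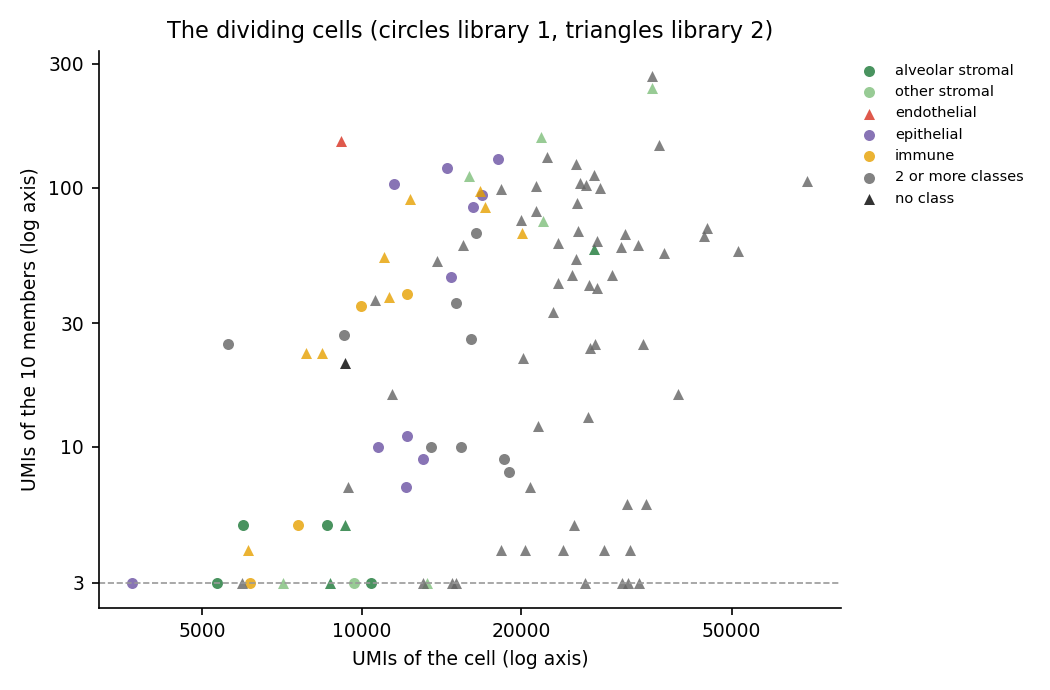
Each dividing cell by its UMIs (horizontal, log axis) and the UMIs of the 10 members it held (vertical, log axis), coloured by class, circles for library 1 and triangles for library 2. The dashed line is the threshold of 3. Alveolar stromal cells lie at 3 to 5 with 1 cell at 58, and 42 of the 60 cells of 2 or more classes in library 2 held 10 or more.

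Summed over each class, the mitotic members followed the dividing cells, and 2 members did not. Mki67 stood at 0 and 0.438 CPM (UMIs of a gene with all UMIs of the class scaled to 1000000) in the alveolar stromal cells of libraries 1 and 2, 0.0935 and 4.99 in other stromal cells, 0 and 22.7 in endothelial cells, 13.9 and 0.732 in epithelial cells, and 11.4 and 55.7 in immune cells. Immune cells were thus high in both libraries, epithelial cells in library 1 and endothelial and other stromal cells in library 2. Top2a gave 0.0853 and 0.258 CPM in alveolar stromal, 12.6 and 0 in epithelial and 18.2 and 48.0 in immune cells. Ube2c gave 0.384 and 0.954 in alveolar stromal, 15.6 and 0 in epithelial and 16.0 and 51.3 in immune cells. Both kept the pattern of Mki67.

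Immune cells were tested against alveolar stromal cells on sums per library and class, in edgeR's quasi-likelihood test with a term for the library and Benjamini-Hochberg adjustment over 13717 genes. Of the 10 members 9 were higher, where 53% of all genes tested were called in either direction. The higher values rested mostly on the 4 and 9 dividing immune cells of libraries 1 and 2. Outside them lay 1 of 10 and 12 of 101 UMIs of Mki67, and 3 of 16 and 4 of 87 of Top2a. Top2a was higher by 7.71 on the log2 scale (SE 0.92), Mki67 by 7.31 (SE 0.93), Birc5 by 5.91 (SE 0.71) and Ube2c by 5.87 (SE 0.76). For Cdk1, whose levels were 0.256 and 0.0773 CPM against 5.70 and 14.9, the difference was 6.34, and for Ccna2 it was 5.12. Rrm2 was higher by 3.58, and Ccnb2 by 1.08 (adjusted p = 0.0358), a call that was lost with DESeq2 (adjusted p = 0.0831). Ccnb2 stood at 9.12 and 14.9 CPM against 9.94 and 5.65 in alveolar stromal cells, and so was not higher in library 1. Tyms differed by 0.65 with an adjusted p of 0.0924 and was not called. With dividing cells left out, 3 of the 10 members passed the count filter, and 7055 of all 13609 genes tested were called in either direction. Ccnb2 was then lower in immune cells, with 1 UMI in each library against 221 and 216 in alveolar stromal cells. Tyms was lower as well, with 4 and 4 UMIs against 323 and 298, and Top2a higher, with 3 and 4 against 2 and 6. These values are a description, as the member rule decided which cells were left out.

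In epithelial cells 9 members were higher and Ccnb2 was lower than in alveolar stromal cells, with 52.9% of genes called. The higher values rested on library 1, where 11 cells were dividing. In library 2 the 101 epithelial cells gave 1 UMI of Mki67, 10 of Tyms and none of the other 8 members. Tyms, counted as higher, stood at 15.5 and 7.32 CPM against 13.9 and 7.89 in alveolar stromal cells, and so was not higher in library 2. Ccnb2 stood at 2.77 and 0 CPM against 9.94 and 5.65, a difference of -1.32 (SE 0.44, edgeR adjusted p = 0.0186), and this call was lost with DESeq2 (adjusted p = 0.0686). The calls of Tyms and Rrm2 were lost without the TMM scaling factor, at adjusted p of 0.607 and 0.156. Leaving that factor out moved the median of all genes from -0.13 to -0.66 and the higher calls from 3408 of 7258 to 2236 of 8854.

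Endothelial cells had 6 members higher, Mki67, Top2a, Hmmr, Cdk1, Ccna2 and Ube2c, with 33.6% of genes called. In library 2, 1 cell gave all the UMIs of Mki67 (42), Hmmr (11), Cdk1 (9) and Ccna2 (8) in its class and 39 of the 40 of Top2a. It gave 27 of the 37 UMIs of Ube2c, and the other 10 lay in 10 endothelial cells that were not dividing, at 5.44 CPM against 0.336 in alveolar stromal cells. Library 1 gave 1 UMI of Cdk1 and none of the other 5, and the Ube2c call was lost with DESeq2 (adjusted p = 0.121). In other stromal cells Mki67 (3.36, SE 0.95, edgeR adjusted p = 0.0469), Top2a (4.36, SE 0.91, adjusted p = 0.00601), Cdk1 (3.30, SE 0.88, adjusted p = 0.0328) and Hmmr were higher than in alveolar stromal cells, with 6.07% of genes called. Of these, the calls of Mki67, Top2a and Cdk1 were lost with DESeq2, at adjusted p of 0.698, 0.336 and 0.377, and library 1 gave 1 UMI of Mki67, 5 of Top2a and 3 of Cdk1. No fold is given for Hmmr, which had 0 and 1 UMIs in alveolar stromal cells against 2 and 59 in other stromal cells. In library 2, 4 of the 99 Mki67 UMIs and 3 of the 145 Top2a UMIs of other stromal cells lay outside dividing cells. Without the scaling factor the higher calls of the endothelial comparison moved from 2036 of 4607 to 2498 of 4555.

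**Figure D3:**
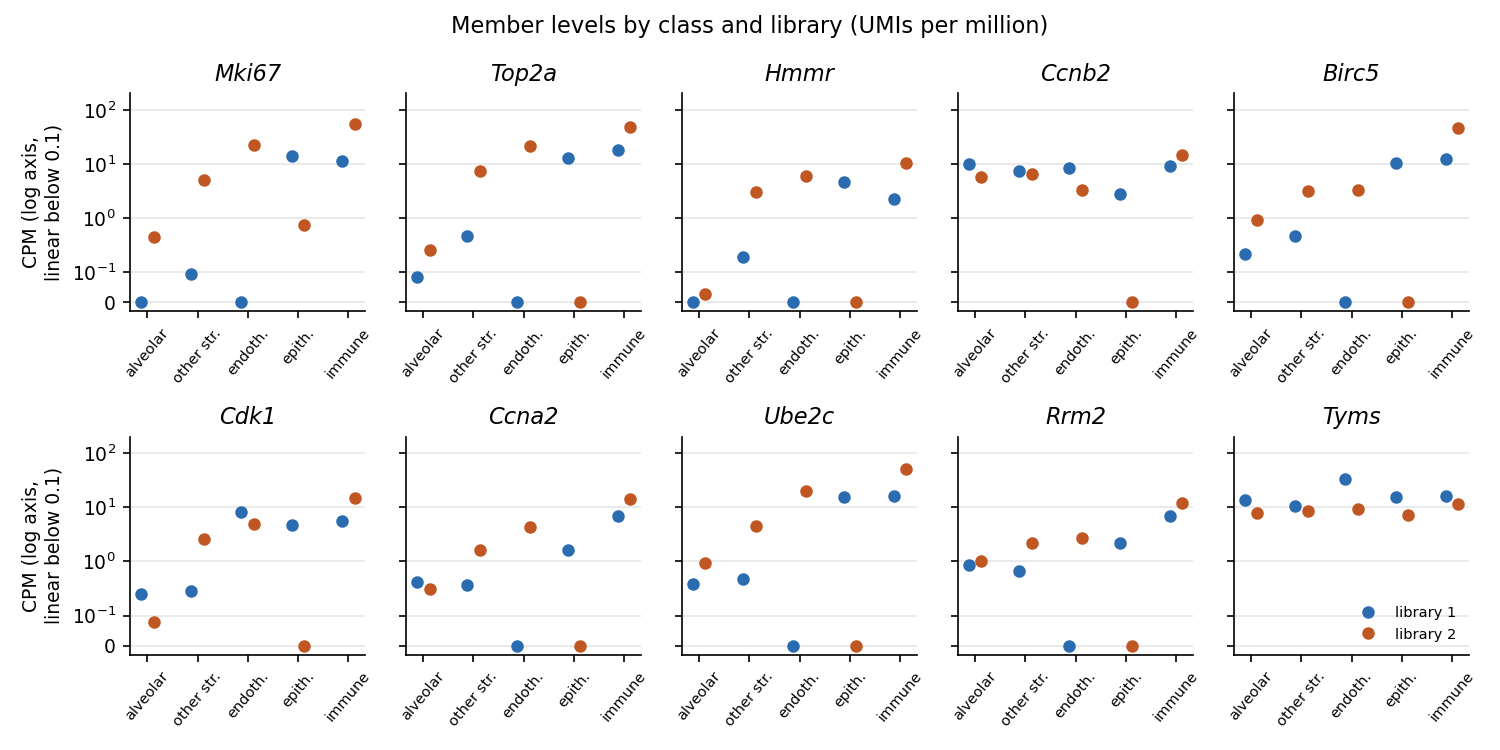
CPM of each member (vertical, log axis that is linear below 0.1) in the 5 classes, with blue points for library 1 and orange points for library 2. Mki67 runs from 0 and 0.438 in alveolar stromal to 11.4 and 55.7 in immune cells, while Tyms stays between 7.32 and 33.5 in all classes.

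Tyms and Ccnb2 were present in cells that were not dividing. Of all Tyms UMIs, 9.76% in library 1 and 17.0% in library 2 lay in dividing cells, and of Ccnb2 15.9 and 39.7%. For Rrm2 the share was 50.8 and 61.0%. The other 7 members lay between 70.2% (Ccna2, library 1) and 97.7% (Hmmr, library 2). Together Tyms and Ccnb2 gave 905 of the 1028 member UMIs outside dividing cells in library 1 and 1085 of 1418 in library 2.

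Outside dividing cells, Ccnb2 was found mainly in stromal cells. It gave 221 UMIs in 5801 alveolar stromal cells of library 1 (9.44 CPM) and 216 in 5542 of library 2 (5.58 CPM). Other stromal cells stood at 7.30 and 4.47 CPM. Epithelial cells had no Ccnb2 UMI in 919 and 101 cells, where 3 UMIs would have made 0.353 and 2.20 CPM, and immune and endothelial cells gave 1 UMI each in each library. Stromal cells lay above the others in library 1 and library 2 alike, apart from the endothelial cells of library 1, whose 1 UMI in 56 shallow cells came to 8.37 CPM. These values are a description, as the member rule decided which cells were left out.

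Tyms outside dividing cells was spread over the classes. Its levels were 13.8 and 7.69 CPM in alveolar stromal, 10.6 and 7.61 in other stromal, 11.8 and 7.32 in epithelial, and 33.5 and 8.70 in endothelial cells (4 UMIs in library 1). Immune cells were the lowest, with 4 UMIs in each library, 4.76 and 2.35 CPM. The other 8 members summed to 2.14 and 2.58 CPM in alveolar stromal cells and to 5.94 and 12.9 in immune cells outside dividing cells.

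**Figure D4:**
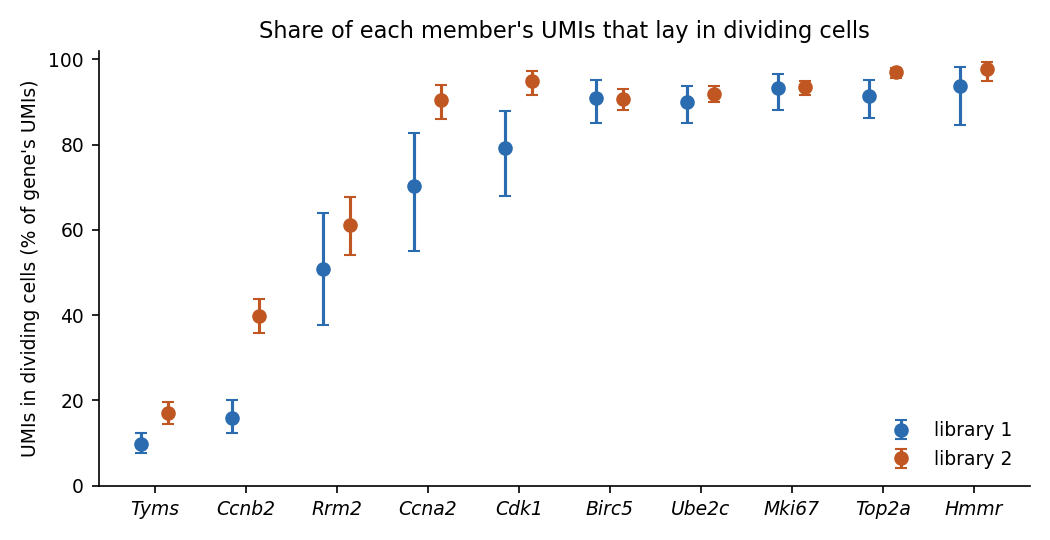
The percentage of each member's UMIs that lay in dividing cells, by library, with exact 95% intervals (counting error only), ordered by the mean of both libraries. Tyms (9.76 and 17.0%) and Ccnb2 (15.9 and 39.7%) sit far below the 7 members on the right.

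Genes outside the 10 members were compared between dividing and other cells to see which programmes went with them. No class had 5 dividing cells in both libraries, so the UMIs of all dividing cells of a library were summed and set against other cells of the same classes and class combinations, weighted to the same proportions, with the library as a block. The test rests on 4 sums, which leave 1 residual degree of freedom. Of 11283 genes, 848 were called (7.52%), 606 of them higher (5.37%) and 242 lower. Without the TMM factor 493 were called, 423 of them higher, and after thinning to 2000 UMIs 150 of 2249, 108 of them higher. Without the library block 28 were called, all of them higher, with 15 genes of the G2/M list and 1 of the S phase list among them.

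The S phase and G2/M genes were higher almost without exception. Of the 53 genes of the G2/M list, which holds no member, 53 were called higher, and their median log2 difference was 5.13 with genes absent from other cells set at a lower bound, beside -0.05 over all genes. Pimreg was at least 48.6-fold, Kif20a, a mitotic kinesin, at least 35.0-fold and Nek2, a centrosomal kinase, at least 27.2-fold higher in each library, against a floor of 3 UMIs per library. Cenpf, a kinetochore protein, stood at 324 and 365 CPM in dividing cells against 0.938 and 0 in others. Of 41 S phase genes tested 40 were called higher, with a median of 3.01. Every tested gene of both lists was higher in both libraries.

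Among S phase genes, Uhrf1, which keeps DNA methylation through replication, was higher by 6.07 (SE 0.48) and Tk1, thymidine kinase, by 5.99 (SE 0.42). Tk1 gave 68.8 and 52.3 CPM in dividing cells against 1.25 and 0.402 in others. Rad51ap1, a recombination gene, stood at 45.9 and 43.9 against 0.313 and 0 CPM. These genes were near 0 in other cells, whereas Pcna, the replication clamp, stood at 42.2 and 60.0 CPM in them against 324 and 159 in dividing cells.

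Of 17 cyclins, kinases and E2F genes of the G1/S step, 11 were higher and none lower, and 7 were called higher without the TMM factor and 4 with DESeq2. The call of E2f2 rested on library 2, since its levels were 5.73 against 12.8 CPM in library 1 and 29.6 against 5.23 in library 2. E2f7 was at least 10.1-fold higher. E2f8 gave 22.9 and 28.5 CPM against 0 and 0.402, Foxm1, the activator of mitotic genes, 28.7 and 31.7 against 0.313 and 0.805, and Ccne2, cyclin E2, was higher by 5.38 (SE 0.55). E2f8 and Ccne2 also stand in the S phase list. The 6 that were not called included the D cyclins, with Ccnd1 at 215 and 176 CPM against 118 and 146 (edgeR adjusted p = 0.0967), and Myc.

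Of 14 inhibitors and brakes tested, 3 were higher and 2 lower, against 1 higher and 0 lower with DESeq2. Rbl1, the retinoblastoma-like protein p107, rose by 2.31 (SE 0.40), and Cdkn2d and Cdkn2c, inhibitors of the D cyclin kinases, by 1.43 (SE 0.19) and 0.76 (SE 0.19). The antiproliferative genes Btg1 and Btg2 fell by 0.52 and 0.42, calls that were lost without the TMM factor. Cdkn1a, the inhibitor p21, stood at 439 and 566 CPM in dividing against 337 and 541 in other cells and was not called (edgeR adjusted p = 0.714).

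Lipofibroblast and immediate early genes were lower in part. Of 16 lipofibroblast genes 7 were lower and none higher, with a median of -0.49. Few of the cells behind this were stromal: 4 and 3 alveolar stromal and 1 and 6 other stromal cells. Of the 109 dividing cells 69 held 2 or more classes. The values thus do not describe dividing lipofibroblasts, and the part of the stromal share of RNA in such barcodes was not tested. Slc7a10 fell by 0.91 (SE 0.27), G0s2, an inhibitor of lipolysis, by 0.90 (SE 0.16), Wnt2 by 0.89 (SE 0.25) and Tcf21, a stromal transcription factor, by 0.74 (SE 0.16), whereas Lrat, the enzyme that stores retinol as ester, stood at 100.3 and 55.0 CPM against 109 and 72.8 and was not called. Of 8 immediate early genes 4 were lower: Jun by 0.53, Fos by 0.41, Jund by 0.35 and Junb by 0.31. These calls were sensitive to the settings, with 2 lipofibroblast and 1 immediate early gene called without the TMM factor and 1 and 0 with DESeq2. They were 1 and 0 without the 5% deepest cells and 0 and 0 without the library block. Without the filter on low counts 10 and 5 were called.

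**Figure D5:**
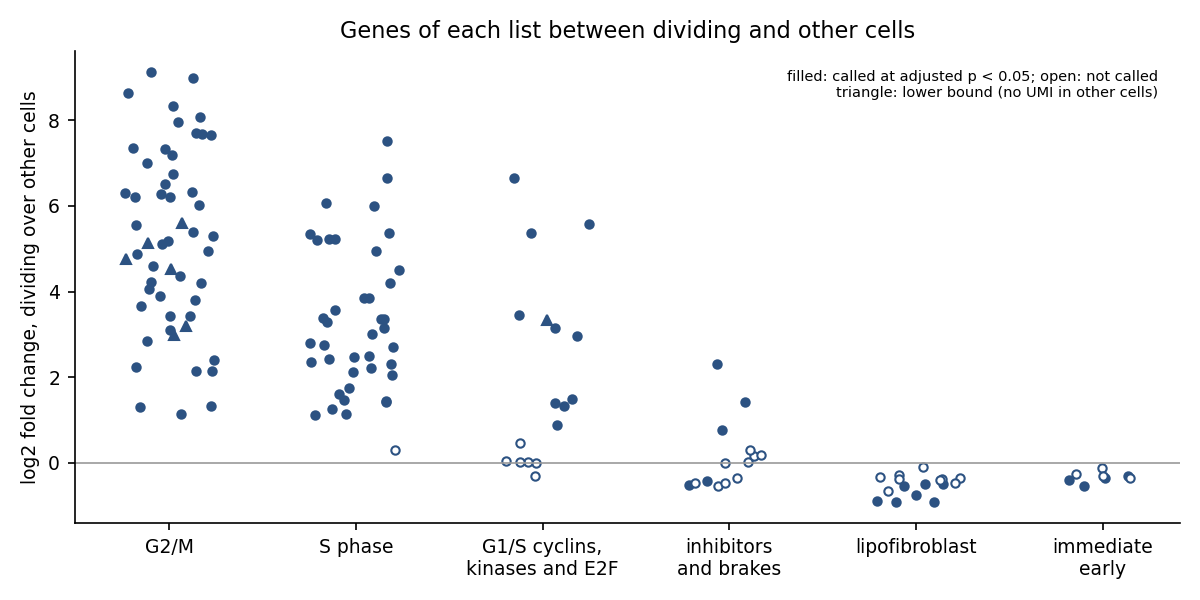
Log2 fold change of dividing over other cells (vertical) for the genes of 6 lists, members left out. Filled points passed the adjusted p of 0.05 in edgeR, open points did not, and triangles are lower bounds for genes with no UMI in other cells. All 53 G2/M genes lie above 0, and 15 of the 16 lipofibroblast genes were lower in both libraries.

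Outside all these lists, the 10 genes with the largest positive difference were Esco2, Mxd3, Ska1, Melk, Cep55, Iqgap3, Spag5, Hist1h2af, Hist1h3c and Cdca5. All 10 had no UMI in the other cells as weighted. Esco2, which acetylates cohesin during replication, was at least 61.3-fold higher (60.2 and 74.0 CPM), Mxd3, a partner of Max, at least 51.7-fold, and Cep55, which acts when daughter cells part, at least 37.7-fold. Cdca5, sororin, had the lowest bound, at least 18.0-fold. Hist1h2af and Hist1h3c are histone genes with near-identical copies, and their counts are uncertain. DESeq2 did not call Ska1, Melk, Iqgap3, Spag5 and Cdca5. Among the 15 genes named here and in the next paragraph, 8 were weaker or not called with DESeq2. Without the library block this held for all 15.

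The 5 genes with the largest negative difference were S100a9, Retnlg, S100a8, Apoc2 and Lyz1. S100a9 stood at 0 CPM in dividing cells of both libraries against 920 and 205 in others, S100a8 at 0 and 1.06 against 840 and 136, and Retnlg at 0 against 74.4 and 18.9. These 3 are neutrophil genes, and neutrophils, none of which was dividing, were among the other immune cells. Lyz1, a lysozyme of alveolar type 2 cells and macrophages, was at 5.73 and 1.06 against 1370 and 112 CPM. None of these lower genes was called without the library block, where all 28 calls were of higher genes.

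The genes whose log2(CPM + 1) ran closest to the mean of the members over the 4 sums were Snrnp35, Pole, Hist1h3i, Aurkb and Gapdh, with Pearson correlations of 0.99986 to 0.99996. With 2 dividing and 2 other sums this describes a gap between states, and sums of a library share its depth. Pole, the leading-strand DNA polymerase, and Aurkb, the mitotic kinase that works with Birc5, are cell cycle genes.

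Immediate early genes answer growth signals and the stress of tissue digestion within minutes, and dividing cells were counted along their level in alveolar stromal cells. Cells thinned to 2000 UMIs were split into tertiles by the summed UMIs of Fos, Fosb, Jun, Junb, Jund, Egr1, Atf3 and Ier2. None of the 1690 cells of the lowest and none of the 1690 of the highest tertile of library 1 was dividing, which allows up to 0.178% in each, and in library 2 none of 1834 in either, which allows up to 0.164%. The 8 immediate early genes summed to 5474 and 46273 CPM in these tertiles of library 1. Member levels were 26.9 CPM in both tertiles of library 1, and 13.6 in the lowest and 18.0 in the highest of library 2. Without Ccnb2 and Tyms the members gave 8 and 8 UMIs in library 1 and 5 and 19 in library 2. A difference in dividing share was not detectable at this depth. Thinning left 0 dividing cells in the whole alveolar stromal class of library 1 and 1 in that of library 2. The counts of 0 in the tertiles therefore decide nothing. Unthinned, the lowest and highest tertiles held 0 and 0 dividing cells in library 1 and 1 and 1 in library 2.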

How the data were processed

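UV-positive lung cells of mice were profiled in 2 droplet libraries (10x Chromium 3'). The authors aligned and counted reads with Cell Ranger 5.0.1 on mm10, per the submitters' processing notes, and deposited raw UMI counts per gene and barcode. The strand setting is not given in the sources used here. UMIs were summed per library and class, and edgeR 4.0.16 (R 4.3.3; TMM scaling, quasi-likelihood test, library as a block, Benjamini-Hochberg threshold 0.05) was applied, with DESeq2 1.42.0 as an alternative. The members, gene lists and rules were chosen with earlier results of these data known. The planned test of dividing against other cells by class could not be made, because 0 classes held 5 dividing cells in both libraries, and the weighted sums replaced it after this was seen. Both sums of a library come from the same cells' library, which is the pairing. Nothing says that the libraries came from separate mice, so p-values measure the spread between 2 libraries, which may be technical. Barcodes under 200 genes or over 10% mitochondrial UMIs were dropped. The live and singlet gates stand, and no doublet caller was run. Intervals are exact (Clopper-Pearson, 95%), cover counting error only, and were computed with scipy 1.17.1. Where a share was 0, its limit is 3 counts of the total. Named genes were the 4 largest log2 differences among called genes of each list and direction, and, outside the lists, the 10 largest positive and 5 largest negative. Other list genes named (Pcna, E2f2, the D cyclins, Myc, Cdkn1a and Lrat) were chosen after their values were seen. The fits were tested on simulated data. Alternatives were scaling, count filters, thinning to 2000 UMIs, other thresholds for classes and dividing cells, removal of the 5% deepest cells, and leaving out each library.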

Additional observations from a re-analysis of the deposited data

Results flagged for a closer look

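Barcodes that failed the filters on genes or mitochondrial UMIs entered no comparison, and they were flagged because they held member UMIs above the limit of 3 that a count of 0 allows. The 35 barcodes left out of library 1 held 7 member UMIs and none was dividing. The 62 left out of library 2 held 7 member UMIs and 1 was dividing.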

How the results depend on the processing

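Of the shares, averaged over both libraries, the all-cell value of 0.551% became 0.950% with 2 UMIs over 2 members. Alveolar stromal (0.0615%) became 0.292% with that rule, 0.0180% with 5 UMIs over 3 members, 0.00908% after thinning and 0.0180% without Ccnb2 and Tyms. Other stromal (0.186%) and endothelial (0.139%) became 0.452% and 1.31% with 2 UMIs over 2 members, and with stromal markers disregarded endothelial became 0.736% and immune (2.10%) 4.20%. In single libraries the shares ranged from 0.301 to 0.801% for all cells, 0.0541 to 0.0689% for alveolar stromal, 0.0543 to 0.317% for other stromal, 0 to 0.278% for endothelial, 0 to 1.18% for epithelial and 1.50 to 2.69% for immune cells. Without the 5% of cells with most UMIs, 12 of 9152 cells (0.131%) and 37 of 9488 (0.390%) were dividing. Epithelial cells then had 2 of 708 (0.282%) and 0 of 99, and immune cells 3 of 265 and 9 of 334. After thinning the all-cell shares were 0.165 and 0.469%. The dividing share of the upper minus the lower immediate early cells was 0, and -0.0182 points with a split at the median. The latter rests on 1 thinned cell of library 2.

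Of 848 genes called between dividing and other cells, the count was 286 with DESeq2, 493 without TMM, 150 after thinning, 308 without the 5% deepest cells, 2271 with all other cells unweighted and 243 in immune cells alone. Without the library block the pairing was lost and 28 genes were called. The block also mattered for classes: without it 120 of the 832 genes of other stromal cells, 3152 endothelial, 4860 epithelial and 5555 immune genes were called. Other stromal calls were 339 with DESeq2 and 390 with stromal markers disregarded. Tyms was not called in endothelial (0.17) or immune cells (0.65). In endothelial cells it was -0.034 without the block and -0.0265 with 5 UMIs for a class. In immune cells with dividing cells left out it was -1.35. Ccnb2 also turned there, from 1.08 to -2.83 (1 UMI in each library, so the size is uncertain). Both are a description, as the member rule decided which cells were left out. In single libraries Tyms ranged from -0.10 to 0.16 in epithelial and Ccnb2 from -0.12 to 1.37 in immune cells. Counts of genes could not be given for 1 library, which leaves no residual degrees of freedom. Alternatives on cells without Ccnb2 and Tyms, with stromal markers disregarded, without dividing cells, unweighted, or of immune cells alone were chosen after seeing the data. The cause of these changes was not tested. Few cells stood behind the epithelial class in library 2 (101) and the endothelial class in library 1 (56).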
